A study of Coprinopsis cinerea with 7 samples.

Results

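The regions described here are 80 long stretches of the Coprinopsis cinerea genome with a lower share of input reads in 1 count table than in another. They are read here as repeated sequence whose copies are partly told apart by reads. They were chosen by measured input counts, from 2 deposited tables of read counts in 300 bp windows. For each window, r is the log2 ratio of the summed input count plus 1, as a share of its total, in the primary table to the same share in the table whose name refers to multiple mapped reads. A window that loses reads when repeated matches are not kept has a negative r, and windows outside repeats had a median r of 0.12. Runs of at least 10 consecutive windows with r under -0.5 on the 13 chromosomes were kept where their mean r was above -3. They are called diverged blocks below. The 80 blocks are 80 of the 1238 runs under -0.5 and hold 1364 of the 120537 windows, which is 1.13% of the windows and 409 kb. The name, like the word repeat here, stands for a place in this ratio, since repetition and sequence divergence between copies were not measured from sequence.

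Coprinopsis cinerea is an ink-cap mushroom, and oidia are the asexual spores its mycelium sheds. Its genome encodes proteins of the TET/JBP family, enzymes that oxidise 5-methylcytosine, first to 5-hydroxymethylcytosine. In fungi, cytosine methylation is found mostly in repeated DNA and transposable elements, where it goes with silencing. On treatment with bisulfite, 5-hydroxymethylcytosine becomes cytosine-5-methylenesulfonate, called CMS, and fragments that carry it are pulled down with a CMS antiserum. The immunoprecipitate (IP) is read against input, which is DNA of the same kind without the pull-down. IP over input is therefore a relative enrichment along the genome and not a share of modified cytosines.

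All groups are genomic DNA of oidia, with no treatment or mutant, and no strain is named in the sources used here. The labels list 5 anti-CMS IP libraries, 3 from the first biological replicate and 2 from the second, and 2 inputs, 1 per biological replicate. Each table holds 2 IP and 2 input count columns, tagged 1_1 and B_1. No label carries these tags, so the columns are 2 replicates per group whose tie to the biological replicates is not known, and a p-value sets IP against input only relative to how these columns scatter. Column totals were 36059418 to 106176723 counts in the primary table and ran from 19994333 to 28735765 in the multi-mapped one.

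The rule used the inputs of both tables and no IP count. As an input is also the denominator of every contrast below, a block picked up because its primary input was low by chance would look higher in IP. When the blocks were found from 1 input and compared with the other input, the log2 difference given below for all blocks together was 0.72 or 0.75 in the primary table, against 0.78 with both inputs, and 0.40 or 0.35 in the multi-mapped table, against 0.38.

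The blocks were 10 to 51 windows long, or 3000 to 15300 bp, with a median of 14 windows (4200.0 bp). Their mean r ran from -2.98 to -1.10 with a median of -2.05. At the length threshold, 15 blocks had exactly 10 windows (mean r -2.98 to -1.25) and 11 runs with 9 windows fell outside it (mean r -2.64 to -1.18). At the threshold on r, the 3 nearest blocks inside had mean r of -2.98 to -2.95, and the 3 nearest runs outside, which belong to the 161 near-identical blocks, had -3.05 to -3.01. The multi-mapped input depth of a block is its count per window, averaged over the 2 inputs. Relative to the median of 205 for windows outside repeats, also averaged over the 2 inputs, it was 1.06 to 4.36 with a median of 2.77. In the primary table the median member window held 6.87 and 7.19 CPM (counts scaled to library size) in IP 1_1 and IP B_1, and 5.12 and 4.83 CPM in input 1_1 and input B_1. Windows outside repeats held 7.52 to 7.62 CPM in all 4 columns of that table. The multi-mapped CPM values were higher, although the IP column totals of that table were smaller. There the median member window held 24.6 and 30 CPM for IP 1_1 and IP B_1 and 21.0 and 20.1 CPM for input 1_1 and input B_1. Windows outside repeats held 6.82 to 7.08 CPM.

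CMS signal was higher in IP than in input over nearly all diverged blocks of the primary table, mostly by a modest amount. Summed over its windows, 74 of 80 blocks were called higher in IP (92.5%) and 0 lower, by edgeR's quasi-likelihood test with a Benjamini-Hochberg adjusted p under 0.05 over all blocks and all other windows in bins of 10. The background was 17.0% of these blocks and bins higher and 1.28% lower. At an unadjusted p under 0.05, 1 block was lower, and DESeq2's Wald test called that block lower at an adjusted p of 0.0164. Both IP columns lay above both inputs in 76 blocks (95.0%), against 27.7% of blocks and bins. The median block log2 IP over input was 0.47 (quartiles 0.38 and 0.60), a 1.38-fold difference, with a median standard error (SE) of 0.08, and the median over all blocks and bins was -0.01. The range was wide, from -0.18 to 3.33: 23 blocks were at least 1.5-fold and 6 at least 2-fold higher. IP B_1 was above IP 1_1 in 56 of the 80 blocks, with a median log2 difference of 0.06.

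**Figure D1:**
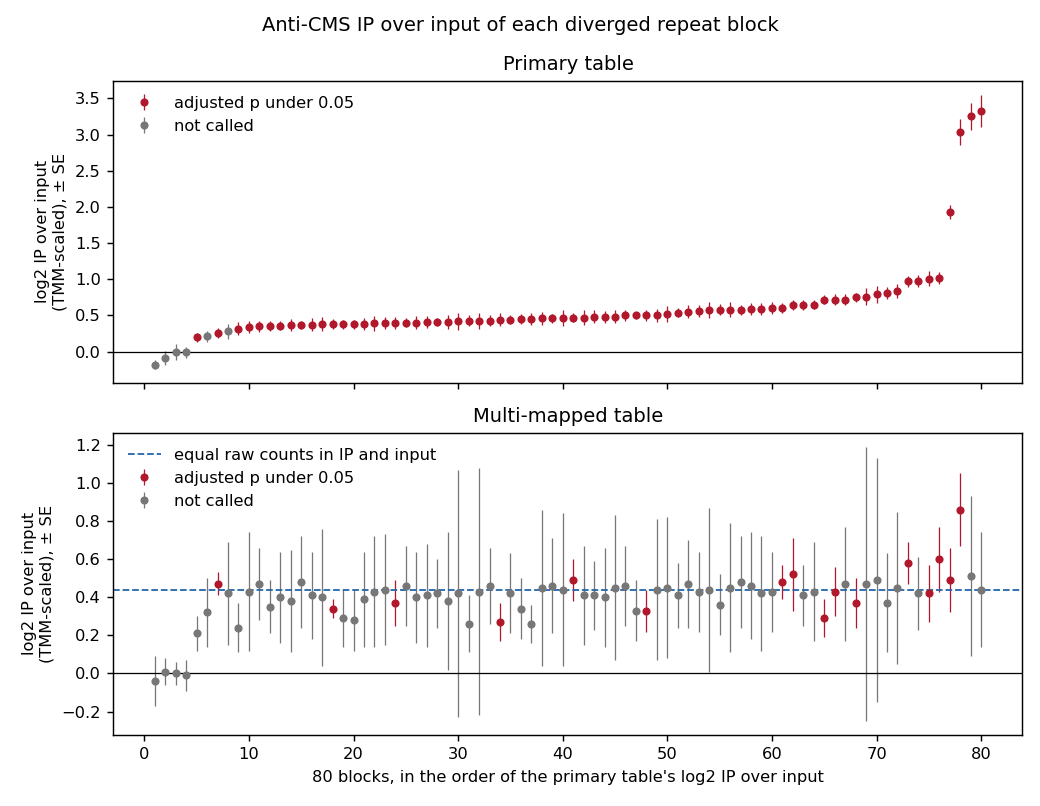
Log2 IP over input (vertical axes, TMM-scaled, bars ± SE) of the 80 diverged blocks, in the order of the primary table's value; red points have an adjusted p under 0.05 and the dashed line in the lower panel marks equal raw counts in IP and input. Of the primary values 74 are called and 4 stand far above the rest, at 1.93 to 3.33, while most multi-mapped values lie near the line at 0.44.

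Window by window, 606 of the 1359 member windows tested in the primary table were higher in IP (44.6%) and 2 were lower (0.147%), against 8.75% and 0.640% of all windows. The median member window had a log2 IP over input of 0.44 (quartiles 0.27 and 0.63). Above 0 were 1260 member windows (92.7%), against 47.6% of all windows. The other 5 windows had fewer than 10 counts in total. At least 2-fold and called were 111 member windows (8.17%), against 1.80% of all windows, and these lay in 30 blocks. Of the 41 windows at least 4-fold higher, 26 lay in the 4 highest blocks, as did all 9 at least 16-fold higher. In no block were all tested windows called; 35 blocks had at least 50% of their windows called and 6 had 0. In the authors' deposited table, 200 of 1362 member windows were higher in IP (14.7%) and 0 lower, against 3.26% of all windows higher. With 1 column left out, its group has a lone column that is assumed to vary like the pair in the other group, so the spread of such a fit comes from that pair alone. The number of member windows called then moved with the pair that gave the spread, as did the number over all windows. The median member log2 was 0.41 without input B_1, 0.49 without input 1_1, 0.42 without IP B_1 and 0.47 without IP 1_1. With library totals in place of TMM scaling, the median log2 of all windows moved from -0.01 to -0.16 and the share of all calls that were higher from 93.2% to 46.5%, and 369 member windows and 71 blocks were called higher, with 4 windows and 1 block lower.

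Other repeat classes of the same genome showed like levels. Near-identical blocks, which are the long runs with mean r of -3 or less, had 27.0% of tested windows higher (median log2 0.42). Of their 4450 windows, 943 had too few counts to be tested. Short repeat fragments, the runs under 10 windows, had 32.1% (median log2 0.33), and windows outside repeats 7.17% (median log2 -0.02). As a share of the counts outside repeats, the diverged blocks took 1.36% and 1.46% of IP 1_1 and IP B_1 and 0.839% and 0.799% of input 1_1 and input B_1. That is a log2 difference of 0.78 ± 0.07 (pooled SD, n = 2 per group), or 1.72-fold, with an exact two-sided permutation p of 0.333, the smallest that 2 against 2 columns can give. The share was higher in both IP columns than in both inputs. The same measure was 0.68 for near-identical blocks and 0.87 for short fragments. Set directly against each other, diverged blocks exceeded near-identical blocks by 0.10 ± 0.01 (log2, pooled SD, n = 2, exact permutation p = 0.333) and lay 0.09 below short fragments (log2 -0.09 ± 0.07, n = 2, exact permutation p = 0.667). Without the 4 highest diverged blocks, the value of this class against windows outside repeats was 0.39, with nothing left out of the other classes.

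The summed difference rested in good part on 4 blocks, which held 28.0% of the member counts of the IP columns and 6.10% of those of the inputs. Without them the log2 difference against windows outside repeats was 0.39, while the median block log2 was 0.46. The highest was a block of 21 windows at 130501 to 136800 of chromosome 13, which overlaps the gene CC1G_15766. It held 1505 and 1930.4 CPM in IP 1_1 and IP B_1, and 173 and 169.5 CPM in input 1_1 and input B_1. Both IP columns were far above both inputs, with a log2 IP over input of 3.33 ± 0.22 (SE, edgeR adjusted p = 6.58e-07), or about 10-fold. The signal was not spread over the block: 5 of its 21 windows were at least 2-fold higher and called, and its median window had a log2 of 0.58. The window at 136201 to 136500 alone held 37.2% of the block's IP counts, and without it the block's log2 was 2.72. That window held 564 and 708 CPM in IP and 7.75 and 6.39 CPM in input, a log2 of 6.49 ± 0.38 (adjusted p = 2.48e-07) or 89.9-fold, the largest among the member windows. Its neighbour at 135901 to 136200 followed with 529 and 686 CPM against 9.34 and 9.37 CPM (log2 6.02). Neither has its midpoint in an annotated gene. The lowest window of the block, at 133201 to 133500, had 4.86 and 6.00 CPM in IP and 5.15 and 5.22 CPM in input, groups that overlap.

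The block at 2397001 to 2404500 of chromosome 7, with 25 windows, held 1285 and 1511 CPM in IP 1_1 and IP B_1, against 151 and 144 CPM in input 1_1 and input B_1. Its log2 IP over input was 3.25 ± 0.19 (SE, edgeR adjusted p = 3.77e-07), or 9.48-fold, and it overlaps the gene CC1G_14893. Here 21 of 25 windows were higher and 12 at least 2-fold higher, with the highest levels in the first 5 windows. Its window at 2397601 to 2397900 had few input counts, 55 and 54, and held 8331 and 6529 counts in IP (log2 6.01 ± 0.22, adjusted p = 8.74e-08). The adjoining window at 2397301 to 2397600 held 267 and 293 CPM in IP and 6.16 and 4.51 CPM in input (log2 5.71). The lowest, at 2400901 to 2401200, still had both IP columns above both inputs, with a log2 of 0.39 ± 0.12 that missed the threshold (adjusted p = 0.0599).

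The block at 1060201 to 1065900 of chromosome 9 was the most evenly enriched of the 4. It held 569 and 822 CPM in IP 1_1 and IP B_1, and 87.8 and 82.1 CPM in input 1_1 and input B_1, so that IP B_1 was the highest and both inputs were alike. Its log2 IP over input was 3.03 ± 0.18 (SE, edgeR adjusted p = 4.01e-07), or 8.19-fold. It overlaps CC1G_02528, CC1G_15168 and CC1G_02529. Of its 19 windows 18 were higher and 15 at least 2-fold higher, and its median window log2 was 2.00. The top window, at 1065001 to 1065300, held 111 and 199 CPM in IP and 3.03 and 3.78 CPM in input (log2 5.50 ± 0.31, adjusted p = 2.03e-07). The last window, at 1065601 to 1065900, did not pass, with 2.32 and 2.62 CPM in IP and 2.79 and 2.53 CPM in input.

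The block at 3161701 to 3164700 of chromosome 2 is shorter, with 10 windows, and overlaps CC1G_06160. It held 199 and 228 CPM in IP 1_1 and IP B_1, and 58.1 and 53.9 CPM in input 1_1 and input B_1. Both IP columns were well above the inputs (log2 1.93 ± 0.09 SE, edgeR adjusted p = 1.71e-07, 3.82-fold). Its window of highest log2, at 3162001 to 3162300, held 56.7 and 65.4 CPM in IP (log2 3.85 ± 0.17, adjusted p = 1.03e-07). The window before that, at 3161701 to 3162000, held the most IP counts, 34.5% of the block's. Without this first window the block's log2 was 1.49. The window at 3163501 to 3163800 was its lowest, at 11.4 and 11.5 CPM in IP and 9.77 and 7.80 CPM in input (log2 0.38, adjusted p = 0.0690). The locus tags of the genes named here carry no product name in the annotation used, so no function is given for them.

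**Figure D2:**
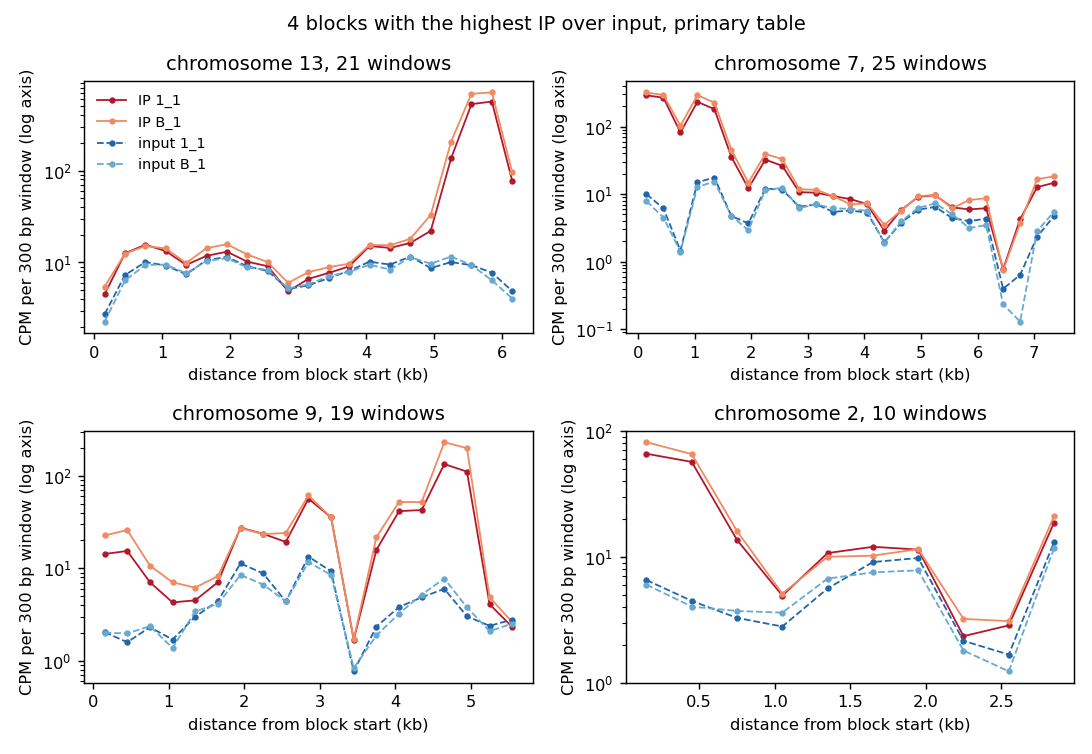
CPM per 300 bp window (log axes) along the 4 diverged blocks with the highest IP over input in the primary table, by distance from the block's start; solid lines are the 2 IP columns and dashed lines the 2 inputs. The excess of IP is concentrated in 1 end of the blocks on chromosomes 13, 7 and 2 and reaches 564 and 708 CPM against 7.75 and 6.39 CPM in input at its peak, while on chromosome 9 it runs through 18 of 19 windows.

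After these 4, the levels fell off without a further gap: the next blocks had log2 values of 1.02 (chromosome 12, 627301 to 630300, overlapping CC1G_20199) and 1.01 (chromosome 7, 675301 to 679800, overlapping CC1G_04012 and CC1G_04013). The first held 73.4 and 77.4 CPM in IP and 41.2 and 33.3 CPM in input, and the second 118 and 149.9 CPM against 68.4 and 64.6 CPM. They were named after their values were seen.

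The longest blocks were all called higher in the primary table, at small to moderate levels. Because 3 blocks tie at 29 windows for the sixth place, 8 are given. The longest, at 1132501 to 1147800 of chromosome 6 with 51 windows, held 393 and 440.3 CPM in IP and 244 and 239 CPM in input. Its log2 IP over input was 0.79 ± 0.12 (SE, edgeR adjusted p = 4.87e-04), 1.72-fold, with both IP columns above both inputs. Of its windows 29 of 51 were higher. Its highest lay 1 window from its end, at 1147201 to 1147500, with 3.30 and 5.64 CPM in IP and 0.265 and 0.287 CPM in input (log2 3.99 ± 0.35, adjusted p = 5.14e-06). That window had few input counts, 10 and 11. The block overlaps CC1G_10343 and CC1G_11974.

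The second, at 2247301 to 2262300 of chromosome 9 with 50 windows, held 375 CPM in each IP column and 287 and 275 CPM in the inputs. Its log2 was 0.42 ± 0.12 (adjusted p = 0.0254), with 16 of 50 windows higher, and it overlaps CC1G_08530 and CC1G_08535. Next came 2 blocks of 48 windows that touch no annotated gene. The one at 2371201 to 2385600 of chromosome 8 held 382 and 411 CPM in IP and 242 and 226 CPM in input (log2 0.76 ± 0.12, adjusted p = 5.18e-04), with 29 windows higher. The one at 2041801 to 2056200 of chromosome 10 held 294 and 304 CPM in IP and 227 and 217 CPM in input (log2 0.43 ± 0.11, adjusted p = 0.0130), with 15 windows higher. Thus blocks of the same length differed in level, 1.69-fold against 1.35-fold, and the IP columns lay above the inputs in both.

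The remaining 4 long blocks had log2 values of 0.38 to 0.58. The block at 1144201 to 1153500 of chromosome 11, with 31 windows and a mean r of -2.97 just inside the threshold, held 183 and 199 CPM in IP and 144 and 145 CPM in input (log2 0.41 ± 0.09, adjusted p = 0.00576). It overlaps CC1G_11629, CC1G_10916 and CC1G_20244, and 8 of its 28 tested windows were higher. Among the 3 blocks of 29 windows, the one at 2141101 to 2149800 of chromosome 2 held 233 and 229.6 CPM in IP and 184 and 172 CPM in input (log2 0.38 ± 0.10, adjusted p = 0.0145). It touches no gene. The one at 1181101 to 1189800 of chromosome 11, overlapping CC1G_10903, held 239 and 249 CPM in IP and 166 and 159.8 CPM in input (log2 0.58 ± 0.10, adjusted p = 7.97e-04). Its last window, at 1189501 to 1189800, was its highest (log2 2.42 ± 0.20, adjusted p = 2.39e-06). The one at 1138501 to 1147200 of chromosome 12, overlapping CC1G_15427, held 194 and 197 CPM in IP and 145 and 133 CPM in input (log2 0.50 ± 0.09, adjusted p = 0.00148). In all 8 long blocks the IP columns lay above the inputs. This is not particular to long blocks, as it held for 95.0% of the diverged blocks, against 27.7% of blocks and bins. With either input left out, where the spread comes from the IP pair alone, the blocks on chromosomes 2, 9 and 10 and the 31-window block of chromosome 11 did not pass, with edgeR adjusted p of 0.0765 to 0.334. Their log2 values were 0.33 to 0.46 in these fits, against 0.38 to 0.43 with all columns. The block on chromosome 12 did not pass without input B_1 (log2 0.43, adjusted p = 0.0588) and passed without input 1_1 (log2 0.56, adjusted p = 0.00702).

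The 4 lowest blocks showed no excess of IP, and all touch annotated genes. The lowest lies at 263101 to 268500 of chromosome 11, with 18 windows, of which 77.8% have their midpoint in the genes CC1G_13124 and CC1G_13125. It held 48.3 and 46.7 CPM in IP 1_1 and IP B_1 and 53.0 and 54.8 CPM in input 1_1 and input B_1, a log2 of -0.18 ± 0.06 (SE, edgeR adjusted p = 0.0600). Both IP columns lay below both inputs, by a margin that missed the threshold. It was called lower with library totals in place of TMM scaling (log2 -0.34, adjusted p = 0.00102) and without IP 1_1 (log2 -0.19, adjusted p = 0.0308), but not without IP B_1 (log2 -0.16, adjusted p = 0.0964), fits whose spread comes from the input pair alone. The 2 member windows called lower both lie in it. At 264301 to 264600 the columns held 3.56 and 3.63 CPM in IP and 5.44 and 5.35 CPM in input (log2 -0.59 ± 0.14, adjusted p = 0.0162). At 264601 to 264900 they held 4.06 and 3.70 CPM in IP and 5.60 and 5.38 CPM in input (log2 -0.50 ± 0.14, adjusted p = 0.0395).

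The other 3 lowest blocks were near 0, with overlapping groups. The block at 1034101 to 1037700 of chromosome 1, with 12 windows over CC1G_08638, held 17.9 and 16.7 CPM in IP and 17.8 and 19.1 CPM in input (log2 -0.09 ± 0.10, adjusted p = 0.662). The block at 698701 to 701700 of chromosome 1 has all its window midpoints in CC1G_13585 and held 24.0 and 31.0 CPM in IP and 27.7 and 27.6 CPM in input (log2 -0.01 ± 0.11, adjusted p = 0.961). The block at 293401 to 296400 of chromosome 11 overlaps CC1G_15653 and held 32.7 and 35.2 CPM in IP and 34.1 and 34.2 CPM in input (log2 -0.01 ± 0.08, adjusted p = 0.957). These 4 blocks had a multi-mapped input depth of 1.20 to 1.65 times that of windows outside repeats, at the low end of the 80. The other 2 blocks not called higher touch no gene. They were the one at 2162101 to 2165400 of chromosome 2 (log2 0.21, adjusted p = 0.133) and the one at 2458801 to 2463300 of chromosome 4 (log2 0.28, adjusted p = 0.103). In both, the IP columns lay above the inputs.

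**Figure D3:**
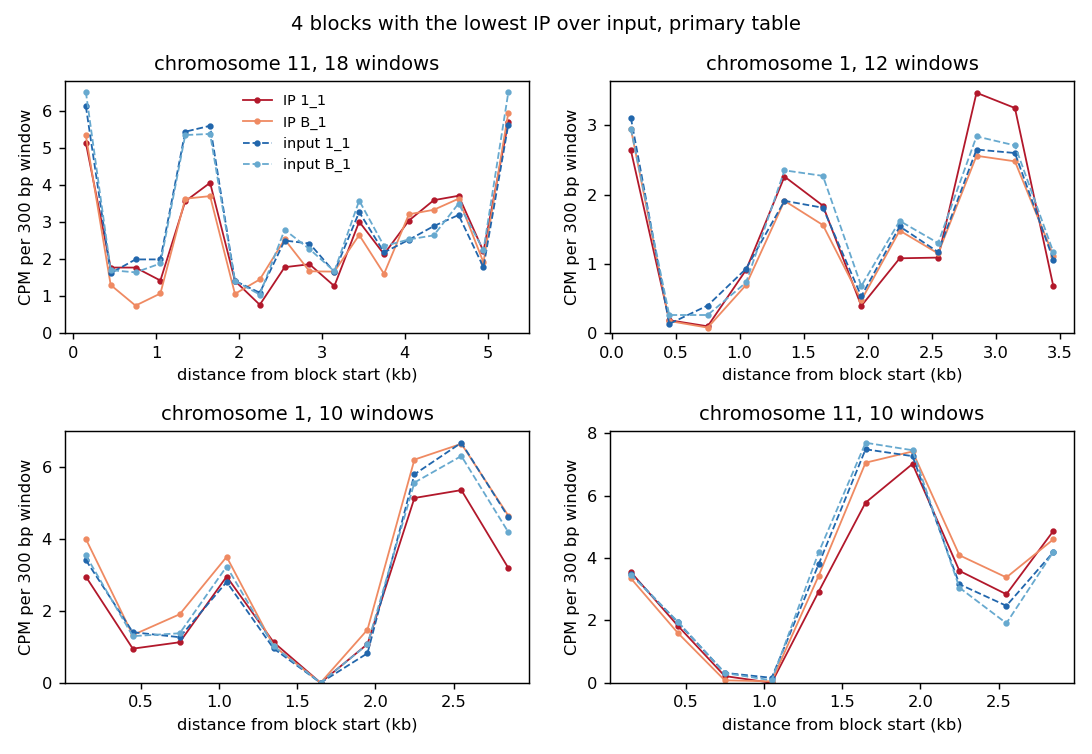
CPM per 300 bp window along the 4 diverged blocks with the lowest IP over input in the primary table, by distance from the block's start; solid lines are the 2 IP columns and dashed lines the 2 inputs. IP and input follow each other through dips and rises, and IP falls below input over the 2 windows of the chromosome 11 block of 18 windows that were called lower.

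Counted with multiple mapped reads, the same blocks had a narrower range of values and far fewer calls. The median block log2 IP over input was 0.42 (quartiles 0.37 and 0.46), from -0.04 to 0.86, against -0.01 over all blocks and bins. Of the 80 blocks 78 were above 0 and 76 had both IP columns above both inputs (95.0%), against 26.9% of blocks and bins. By edgeR with all 4 columns, 16 of 80 were higher (20%) and 0 lower, against 14.3% and 2.96% of blocks and bins. The share called in this fit was thus near the background. At an unadjusted p under 0.05, 0 blocks were lower, and DESeq2's Wald test also called 0 lower and 43 higher. Over all blocks and bins that test called 1838 higher and 48 lower. The called blocks had a median log2 of 0.45 against 0.42 in the others, and smaller SE, 0.05 to 0.19 with a median of 0.11 against a median of 0.24. They were also shorter and less deep, with 10 to 19 windows and a median depth of 1.75 times the windows outside repeats, against 10 to 51 windows and 2.90 times. IP B_1 was above IP 1_1 in 80 of 80 blocks of this table, by a median log2 of 0.29, and the inputs differed by -0.05. Of the member windows 289 of 1364 were higher (21.2%) and 0 lower, against 7.00% and 0.816% of all windows. The median window log2 was 0.39, and 14 windows were at least 2-fold higher and called (1.03%), against 0.438% of all windows. Windows called in both tables numbered 197, which is 32.5% of the primary and 68.2% of the multi-mapped calls. Both tables carry the tags 1_1 and B_1. Whether a tag stands for the same DNA in each is not known, and the calls were not taken as independent. In the authors' deposited table for multi-mapped counts, 415 of 1364 member windows were higher (30.4%) and 0 lower, against 3.21% of all windows higher. With library totals in place of TMM scaling the share of all calls that were higher went from 89.6% to 47.9%, with 274 member windows and 22 blocks higher and 0 lower. The counts of calls moved with the pair of columns that gave the spread, more than the values did. Among member windows and blocks they rose when either IP column was dropped and fell when either input was. The counts over the whole table moved the same way. The median block log2 was 0.58 when IP 1_1 was dropped and 0.27 when IP B_1 was. It was 0.45 when input 1_1 was dropped and 0.39 when input B_1 was.

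The 2 inputs of the multi-mapped table differed over windows by less than sampling noise (chi-square per degree of freedom 0.916), whereas in the primary table they differed by more (1.90), so they were kept as 2 columns. Counted as 1 sample in the multi-mapped table, with the spread from the IP pair alone, they left 71 windows and 2 blocks higher in IP. Over all blocks together the share of counts outside repeats was 3.93% in IP 1_1, 4.82% in IP B_1, 3.41% in input 1_1 and 3.30% in input B_1. This is a log2 difference of 0.38 ± 0.15 (pooled SD, n = 2 per group, exact permutation p = 0.333), or 1.30-fold, and it was 0.23 without IP B_1. Near-identical blocks and short fragments both stood at 0.35 in the same measure. The diverged blocks exceeded each by 0.02 (log2, n = 2, exact permutation p = 0.333 and 0.667), and the share of called windows was 16.7% and 35.6% in these classes and 5.70% outside repeats.

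The highest blocks of the primary table were not set apart in the multi-mapped table, with 1 exception. The chromosome 13 block held 534 and 655 CPM in IP and 449.6 and 429 CPM in input there (log2 0.44, adjusted p = 0.357). The chromosome 7 block held 829 and 1036 CPM in IP and 662 and 643 CPM in input (log2 0.51, adjusted p = 0.459). The chromosome 9 block was the exception and the highest of the 80, with 319 and 409.5 CPM in IP and 201 and 199 CPM in input (log2 0.86 ± 0.19, edgeR adjusted p = 1.06e-04, 1.82-fold). In the 3 fits with 1 input sample, whose spread comes from the IP pair alone, it did not pass (adjusted p of 0.311 to 0.411), with a log2 of 0.86 to 0.87. It was higher in 18 of 19 windows, and its highest there, at 1064101 to 1064400, had a log2 of 1.45 ± 0.13 (adjusted p = 4.77e-19). The chromosome 2 block held 257 and 324 CPM in IP and 216 and 198 CPM in input (log2 0.49, adjusted p = 0.0327). It did not pass with DESeq2's size factors (log2 0.49, adjusted p = 0.0585) or in the 3 fits with 1 input sample (log2 0.42 to 0.55, adjusted p of 0.462 to 0.653). The peak window of the chromosome 13 block, at 136201 to 136500, had primary IP counts of 57488 and 44809 but multi-mapped IP counts of 663 and 668, against 563 and 524 in the multi-mapped inputs. No window of the multi-mapped table held more than 1071 counts, and no member window more than 1055, while the primary table reached 162928.

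A pair of features of the multi-mapped counts moves with these values. First, raw counts of the blocks were about the same in IP and input: the ratio was 0.986 over all member windows, 0.981 for the 1_1 columns and 0.992 for the B_1 columns. Outside repeats the ratios were 0.766, 0.850 and 0.679. Equal raw counts give a log2 of 0.44 after TMM scaling, and 61 of the 80 blocks lay within 0.1 of that value. Second, the ratio moved with depth: windows outside repeats with fewer than 400 summed input counts had a ratio of 0.754, those with at least 800 but under 1200 had 0.918, and those with at least 1200 but under 1600 had 0.985. The ratio of member windows lay above that of windows outside repeats below 1200 counts and was about level with it from there on. It was 1.08 against 0.754 in the 45 member windows below 400 counts and 0.965 against 0.764 in the 253 from 400 to under 800. It was 0.992 against 0.918 in the 394 from 800 to under 1200, and 0.987 against 0.985 in the 434 from 1200 to under 1600. In the 238 member windows from 1600 counts it was 0.984 against 1.00. In the primary table the members were above windows outside repeats at each matched depth, with 3.79 against 2.29 below 400 counts and 4.29 against 2.29 from 400 to under 800. These sums include the 4 highest blocks, with 28.0% of the member IP counts and 6.10% of the input counts. The input count that sets the bins is also the ratio's denominator and entered the rule. The part that depth has in the result of either table was not tested further. In the multi-mapped table the 4 lowest blocks had raw ratios of 0.721 to 0.747, near the 0.766 of windows outside repeats, and log2 values of -0.04 to 0.01.

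**Figure D4:**
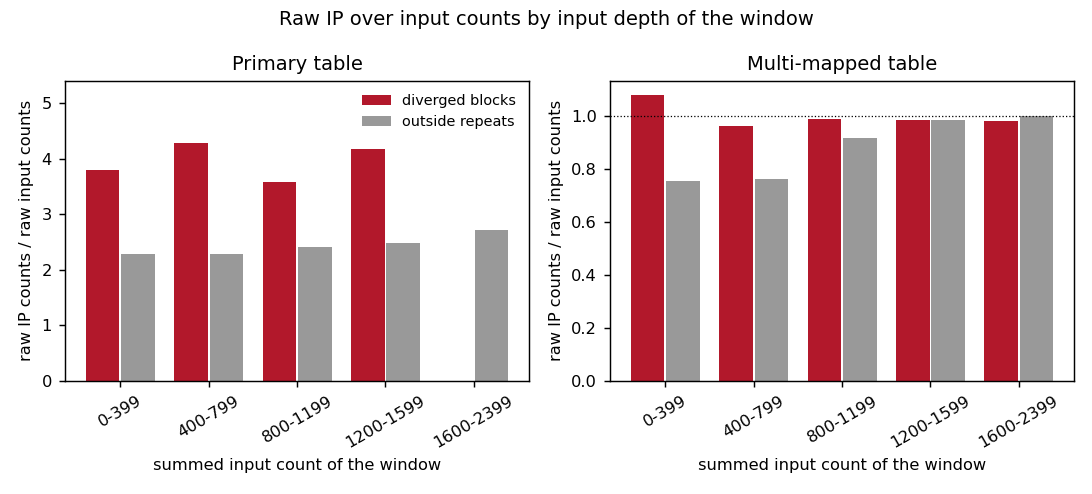
Raw IP counts over raw input counts (vertical axes, bars from 0, summed over both columns of each group) of windows binned by summed input count, for member windows of the diverged blocks in red and windows outside repeats in grey. In the primary table the red bars are higher in every bin that holds member windows (3.79 against 2.29 in the first), and in the multi-mapped table both classes come to about 1 from 1200 counts on.

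The windows next to the blocks carried part of the signal as well. Flanking windows that are not repeats by the r threshold had a median log2 IP over input of 0.40 in the primary table directly beside a block, with 43.4% higher, and 0.28 with 27.2% higher 10 windows away. Both lie above the median of -0.02 of windows outside repeats. The first 2 windows inside the edge had medians of 0.44 and 0.48. The multi-mapped median went from 0.18 at 10 windows to 0.35 beside the block and 0.40 in its first window. The share of windows called there peaked at the edge, at 53.8% of first windows, and was 16.2% of the windows at position 5, while their median log2 was 0.40 and 0.38. The median summed input count went from 772 in the first window to 1198 at position 5 of that table. The part of depth in this pattern was not tested.

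**Figure D5:**
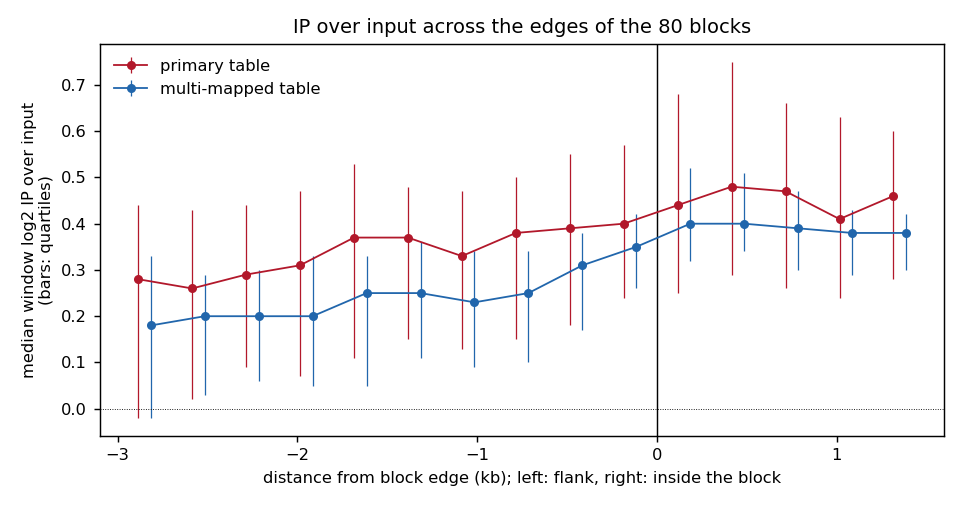
Median log2 IP over input (vertical axis, bars from the lower to the upper quartile) of windows by distance from the edges of the 80 diverged blocks, in the primary table (red) and the multi-mapped table (blue). Both lines climb towards the block, from 0.28 and 0.18 at the tenth window outside to 0.44 and 0.40 in the first window inside.

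Most block sequence lies outside annotated genes. Of the member windows 15.2% have their midpoint in a gene, against 23.4% in near-identical blocks, 27.8% in short fragments and 68.6% outside repeats. The blocks overlap 74 genes, 4 of them for transfer RNA, and 34 blocks touch no gene. Member windows outside genes were higher in 539 of 1153 cases in the primary table (46.7%, median log2 0.46), and those in genes in 67 of 206 (32.5%, median log2 0.33). The same order held outside repeats in that table, with 9.65% and 5.74%. By multi-mapped counts, 20.9% of member windows outside genes and 22.7% of those in genes were higher (median log2 0.40 and 0.27). By block in the primary table, 41 of the 43 with no window midpoint in a gene were called. So were 22 of the 23 with under 50% of windows in genes, and 11 of the 14 with 50% or more. Their median log2 values were close, at 0.48, 0.43 and 0.44. By multi-mapped counts the gene-rich blocks had the lower median, 0.28 against 0.43, yet 7 of 14 were called against 4 of 43. Their depth differed too, with a median of 1.75 times that of windows outside repeats against 3.07. Across the 80 blocks, which share the same columns, Spearman's rho between gene cover and depth was -0.643 as a description. Between depth and the primary log2 it was 0.112, between length and that log2 0.188, and between mean r and that log2 0.0128.

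The block just inside the threshold on r at the shortest length, at 886501 to 889500 of chromosome 3, is an example of a gene-rich block, with 90.0% of its 10 windows in CC1G_04462, CC1G_04463 and CC1G_04464. It held 27.2 and 26.6 CPM in IP and 19.8 CPM in each input in the primary table (log2 0.44 ± 0.09, edgeR adjusted p = 0.00232). Its multi-mapped log2 was 0.27 ± 0.10 (adjusted p = 0.0336). It did not pass with library totals (log2 0.16, adjusted p = 0.0588), with DESeq2's size factors (log2 0.27, adjusted p = 0.0585) or in the 3 fits with 1 input sample (log2 0.26 to 0.27, adjusted p of 0.387 to 0.5). Its highest primary window, at 887401 to 887700, lay in a gene and had a log2 of 1.08 ± 0.22 (adjusted p = 0.00598).

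Diverged blocks occurred on all 13 chromosomes, from 2 blocks on each of chromosomes 5, 8 and 13 to 10 on each of chromosomes 4 and 12. All blocks were called higher on the chromosomes other than 1, 2, 4 and 11, where 2 of 4, 5 of 6, 9 of 10 and 5 of 7 were called. The median distance to the next block was 36.3 kb, 31 blocks lay within 20 kb of another, and 52 lay within 20 kb of a near-identical block. The median distance to the chromosome end was 679 kb, and 3 blocks lay within 20 kb of one. In 5 places at least 3 blocks followed each other at gaps of at most 20 kb. The one with the most blocks was on chromosome 12, from 627301 to 671700, where 5 blocks make up 66 of 148 windows and had log2 values of 0.39 to 1.02, all called. On chromosome 11, from 1144201 to 1189800, 4 blocks had 0.37 to 0.60, all called. On chromosome 2, from 2141101 to 2174700, 4 blocks had 0.21 to 0.47 and 3 were called. The groups of 3 blocks on chromosome 4, from 1518901 to 1545900, and chromosome 7, from 1891201 to 1923000, had 0.35 to 0.48 and 0.45 to 0.48. Blocks within 2 kb of a near-identical block, 8 in number, had a median of 0.50, and the 72 others 0.47.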

How the data were processed

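DNA of oidia was purified with a Qiagen DNeasy plant kit and made into TruSeq libraries, per the labels' protocols. Bismark 0.6.4, Bowtie 0.12.7 and edgeR appear in the submitters' processing notes. The genome build and the handling of duplicates and repeated matches are stated in none of the sources. The name of the multi-mapped table also carries the word Unique. Whether the 2 tables differ in more than repeated matches is not known. As deposited by the authors, the files hold read counts per 300 bp window in 2 tables, with log2 fold changes and adjusted p-values of their own edgeR test, which were read only to count their calls. A column suffix of the multi-mapped table has no explanation in the labels, and 8 per-sample RPKM columns were not used.

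Counts were tested per window, and per block with all other windows in bins of 10, with 2 IP against 2 input columns, by the quasi-likelihood test of edgeR 4.0.16 in R 4.3.3 after TMM scaling, at least 10 counts in total, and a Benjamini-Hochberg adjusted p under 0.05 over the whole table. CPM values are TMM-scaled, and an SE comes from the F statistic. Column totals, given with the results, set the counting precision, and without molecular identifiers the counts are not independent molecules. DESeq2 1.42.0, other scalings, filters, thresholds and definitions of a block, and each column left out, were the alternatives. Tests were checked on simulated counts.

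The blocks, tests and naming rule were chosen with earlier results of these data known. Named are the 6 longest blocks, the 4 highest and 4 lowest by primary log2, blocks at the thresholds, their annotated genes, and their highest and lowest windows. Genes came from a RefSeq table of assembly CC3 without product names. Its fit to the windows was settled from the data: on 13 of 13 chromosomes gene cover and input correlated best with no shift.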

Additional observations from a re-analysis of the deposited data

How the results depend on the processing

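By primary counts, 606 member windows and 74 blocks were higher in IP and 2 windows and 0 blocks lower, and the blocks together stood 0.78 (log2) above windows outside repeats. Windows higher numbered 322 at an adjusted p under 0.01, 352 with a 1.5-fold minimum and 369 with library totals. With blocks defined by r under -0.75 or by at least 15 windows they numbered 403 each, and by mean r above -2, 238. Blocks higher numbered 23 with a 1.5-fold minimum, 34 of the 36 blocks of at least 15 windows and 33 of the 34 with mean r above -2. Windows lower numbered 0, 1, 4 and 1 (adjusted p under 0.01, 1.5-fold, library totals, DESeq2's Wald test), and blocks lower 1 with library totals, with DESeq2 and with the replicate block. The log2 difference was 0.69 with members from input 1_1 alone, 0.93 for blocks of at least 15 windows, 0.88 for mean r above -2, 0.67 without the first and last 2 windows of each block, 0.51 as a median over windows and 0.39 without the 4 highest blocks. Leaving out 1 column gave 250 to 858 windows higher and 0 to 9 lower, 53 to 75 blocks higher and 0 to 1 lower.

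By multi-mapped counts, 289 windows and 16 blocks were higher. Windows numbered 176 at an adjusted p under 0.01, 106 with a 1.5-fold minimum, 894 by DESeq2's Wald test and 71 with both inputs as 1 sample. They numbered 163, 162 and 141 for r under -0.75, at least 15 windows and mean r above -2, and 145 without the first and last 2 windows. Blocks numbered 8 at an adjusted p under 0.01, 2 with a 1.5-fold minimum, 43 by DESeq2 and 2 with both inputs as 1 sample. With the other definitions they numbered 8, 2 and 7, and 32 without the first and last 2 windows. Leaving out 1 column gave 58 to 1268 windows higher and 0 to 1 lower, and 2 to 76 blocks higher. Which cause lies behind these shifts was not tested. With the column tag as a replicate block, 842 windows and 75 blocks were higher in the primary table, and 195 windows and 6 blocks in the multi-mapped table; the block lowest in IP became a call (adjusted p = 0.0113) and the block of 50 windows on chromosome 9 lost its call (adjusted p = 0.0565), as did the multi-mapped values of the 10-window blocks named on chromosomes 2 and 3 (adjusted p = 0.233 and 0.116). Deviations of columns with the same tag correlated at 0.155 and 0.0614 over windows, and the tags share only a name.

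Among the named blocks, sign changes occurred only in the 4 lowest. By primary counts the block at 698701 of chromosome 1 went to 0.00 with TMM from windows outside repeats, to -0.20 to 0.18 with 1 column left out and 0.01 without its top window, and the block at 293401 of chromosome 11 to 0.01 with that TMM and -0.06 to 0.06 with 1 column left out. By multi-mapped counts the first went to -0.10 with library totals and -0.10 to 0.13 with 1 column left out (-0.00 without input 1_1). The block at 1034101 of chromosome 1 went to -0.09 with library totals and -0.05 to 0.09 with 1 column left out. The block at 263101 of chromosome 11 went to -0.11 to 0.05 with 1 column left out, and the one at 293401 to 0.01 with TMM from windows outside repeats and -0.11 to 0.11 with 1 column left out. Of the other values of named blocks under an alternative, 358 kept direction and call, 29 gained a call and 24 lost it. The alternatives without the top window, without the 4 highest blocks and with both inputs as 1 sample were added after the data were seen. Sequencing depth limits windows of few primary counts most, and 2 columns per group limit every test.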
